A study of Mus musculus with 16 samples.

Results

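The cells described here are Flt3+ Cd34+ multipotent progenitors from the lineage-depleted bone marrow of mice that were wild-type (WT) or lacked Tet2, with and without chronic exposure to the cytokine IL1β. They were chosen from droplet counts of unique molecular identifiers (UMIs, 1 per captured RNA molecule) by a fixed gate. A cell needed at least 750 detected genes, at most 10% mitochondrial UMIs, at least 1 UMI of Flt3 and at least 1 of Cd34. It could hold no more than 1 of the 5 stem cell genes Hlf, Mecom, Procr, Mllt3 and Gcnt2, no UMI of Dntt, Siglech or Csf1r, and fewer than 5 UMIs of Mpo. The gate kept 845 of 94917 cells, or 0.89%.

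The mice were C57BL/6, aged 6 to 12 weeks by the labels and 8 to 12 weeks by the study's methods, and all carried the floxed Tet2 allele (Tet2 fl/fl). Mice without Cre served as WT, and Vav-Cre Tet2 fl/fl mice, in which Cre acts throughout the blood system, are called Tet2-KO, so the presence of Cre and the loss of Tet2 cannot be told apart. Each genotype received vehicle or IL1β, 500 ng per mouse per day for 5 weeks by intraperitoneal injection, with 4 mice in each of the 4 groups. Cells of 2 mice of the same group were labelled with hashtag antibodies and pooled, which gave 8 libraries, so a pool and its mice cannot be told apart.

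Multipotent progenitors lie downstream of long-term haematopoietic stem cells (HSCs) and give rise to the myeloid, lymphoid and, to a lesser degree, erythroid and megakaryocytic lineages. Flt3 encodes the receptor for Flt3 ligand and marks progenitors that have left the stem cell state and begun to favour lymphoid and myeloid fates, and Cd34 is a surface sialomucin of early progenitors. IL1β binds a receptor made of Il1r1 and Il1rap, and through Myd88 activates the transcription factor NF-κB, which induces its own inhibitors, cytokines and early response genes. TET2 oxidises methylated cytosine and is often mutated in clonal haematopoiesis.

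The libraries held 8569 to 14573 cells each, with a median of 4436 to 7363 UMIs per cell. No library pair shared more than 57 cell barcodes, no pair shared more than 0.512% of the barcodes of its smaller library, and no barcode of a gated cell was shared between libraries. The libraries gave 65 and 105 gated cells in WT vehicle, 84 and 149 in WT IL1β, 108 and 164 in Tet2-KO vehicle, and 94 and 76 in Tet2-KO IL1β. These were 0.579% to 1.13% of the cells of a library. Hashtags placed 595 of the gated cells with 1 mouse, 224 gave no call, and 26 carried both hashtags of their pool and were left out, which left 819.

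Gated cells were shallow. Their median was 3400 UMIs and 1587 genes per cell, against 5914 UMIs and 2157 genes over all cells, and the median mitochondrial share was 4.51% against 4.38%. Of the 845 cells, 527 reached 3000 UMIs, the number to which cells were thinned where shares are compared across depths. At this depth the gate rested on few molecules. Flt3 was seen by 1 UMI in 596 cells (70.5%) and by 2 in 189 (22.4%), and Cd34 by 1 UMI in 436 cells (51.6%). None of the 5 stem cell genes was detected in 445 cells and 1 of them in 400, most often Hlf (24.0% of all gated cells) or Gcnt2 (15.6%). Mpo, the peroxidase of myeloid granules, was at 0 UMIs in 279 cells and at the highest allowed count of 4 in 90.

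Many cells lay just outside the limits. A second stem cell gene kept out 314 cells that passed every other limit, 1 UMI of Dntt kept out 118, 1 UMI of Csf1r 116, 5 UMIs of Mpo in place of fewer 83 and 1 UMI of Siglech 25. A lack of Flt3 alone kept out 4096 cells and a lack of Cd34 alone 1420. These values describe the gate and are not findings about the cells.

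The label was set against markers of multipotent progenitors beyond the gate genes. All 13 of them were detected in over 5% of gated cells. Sox4, a transcription factor of early progenitors, was detected in 82.0% of gated cells and 38.7% of other cells, at 884 against 152 CPM (UMI counts scaled to a common library total). Mef2c, a transcription factor of lymphoid and myeloid specification, was detected in 69.7% against 37.8%, and the chromatin organiser Satb1 in 49.2% against 19.1%. Meis1, Angpt1 and Adgrl4, which HSCs also express, were detected in 41.9%, 37.6% and 44.9% of gated cells. As background, cells with UMIs of Klf1 and of another erythroid gene (the erythroid gate), which should lack most of these genes, held Sox4 in 14.0%, Mef2c in 11.4%, Satb1 in 4.07% and Meis1 in 3.36%, at a median of 10097 UMIs per cell. After thinning to 3000 UMIs the shares were 74.4%, 64.7%, 40.0% and 33.8% in gated cells against 4.95%, 3.50%, 1.20% and 1.04% in the erythroid gate. Myb did not separate them, with 339 CPM in gated and 323 CPM in other cells. Kit separated them little by detection, in 43.9% of gated cells, 37.4% of other cells and 33.1% of the erythroid gate (thinned 33.4% and 12.4% in the gated cells and the erythroid gate). Ly6a was detected in only 10.8% of gated cells (thinned 5.69%), against 4.28% of other cells.

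Priming genes of several lineages were each detected in part of the gated cells. Among lymphoid genes, Runx2 was detected in 40.5% of gated cells (36.1% after thinning, against 1.01% in the thinned erythroid gate), while Il7r, the receptor of common lymphoid progenitors, was detected in 18 cells (2.13%). Irf8, a regulator of monocyte and dendritic cell fate, was at 504 CPM against 148 CPM in other cells. The granule protease genes were lower than in other cells, with Elane at 67.4 against 2120 CPM and Prtn3 at 558 against 2590 CPM. Prtn3 was still detected in 76.3% of gated cells (72.5% after thinning, against 15.2% in the thinned erythroid gate). The Mpo limit of the gate alone kept out 1899 cells and its Dntt limit alone 573. The part of these limits in the low granule protease and Il7r values was not tested. The defining B cell genes Ebf1 and Pax5, the cytotoxic gene Gzma and the eosinophil gene Prg3 were at 0 UMIs in all 845 cells, and 0 of 845 cells allows a share of up to 0.355% with a UMI. Such intervals and limits cover counting error only.

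Some gated cells also carried markers of other types. At least 3 markers of 1 of 8 other types were detected in 286 cells, with overlaps between types. They were 176 cells for monocytes, 70 for neutrophils, 44 for erythroid cells, 23 for basophils and mast cells, 21 for class II dendritic cells, 5 for T and NK cells, 3 for megakaryocytes and 1 for B cells. The lists of granulocyte progenitors, plasmacytoid dendritic cells, plasma cells and eosinophils were not used for the 286, and 122, 11, 2 and 1 gated cells held at least 3 of their markers. Library sums of some of these lists are given. The 8 erythroid markers summed to 1100 to 2220 CPM in the WT vehicle libraries, 424 to 538 in WT IL1β, 569 to 1560 in Tet2-KO vehicle and 517 to 738 in Tet2-KO IL1β. The 8 neutrophil markers summed to 1240 to 1250, 2080 to 3080, 426 to 1020 and 617 to 1620 CPM in the same order. The 5 basophil and mast cell markers summed to 52.1 to 387, 515 to 585, 46.2 to 102 and 248 to 252 CPM. In Tet2-KO the erythroid and neutrophil sums overlapped between vehicle and IL1β libraries, while the basophil and mast cell sums were apart in both genotypes. By fitted mouse, the basophil and mast cell sums overlapped in WT, at 46.7, 871 and 116 against 267, 395, 335 and 97.0 CPM. Library sums of other lists were apart too, and not all are given. Monocyte markers were at 615 to 778 against 950 to 1010 CPM in Tet2-KO and overlapped in WT, at 926 to 988 against 819 to 1320 CPM. The 13 multipotent progenitor markers were at 1980 to 2790 against 3220 to 3420 CPM in WT and 2530 to 2990 against 4280 to 4690 CPM in Tet2-KO. Granulocyte progenitor markers were apart in WT only, and T and NK cell markers in Tet2-KO only. Plasmacytoid dendritic cell markers were at 334 to 424 against 193 to 205 CPM in WT. In Tet2-KO they were at 283 to 310 against 238 to 241 CPM, and class II dendritic cell markers at 105 to 260 against 731 to 775 CPM. Each group has 2 libraries, and the part of any list in the results below was not tested. In summed counts, fewer cells of a type and less RNA per cell cannot be told apart. The tests of IL1β were therefore repeated without the 286 cells, and a named gene that lost its call there is given as such in its paragraph.

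The first comparison asked whether IL1β or loss of Tet2 changed how large a share of the marrow progenitors these cells formed. The share was taken over cells assigned to each mouse. In WT vehicle mice 1 to 4 it was 1.06%, 0.86%, 1.20% and 1.18%. In WT IL1β mice it was 0.669%, 0.483%, 1.18% and 0.844%. Tet2-KO vehicle mice had 1.04%, 0.397%, 1.33% and 1.51%, and Tet2-KO IL1β mice 0.351%, 1.45%, 0.736% and 0.859%. The lowest shares, in Tet2-KO vehicle mouse 2 and Tet2-KO IL1β mouse 1, came from few and deep assigned cells. These mice had 1259 and 1426 assigned cells, at medians of 8967 and 9067 UMIs. The other Tet2-KO mice had 4214 to 5575, at medians of 4638 to 7212 UMIs. Gated cells were shallow, and the part of the hashtag calls in these low shares was not tested. The groups overlapped in all 4 comparisons.

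The mean share was 1.07% ± 0.156 (SD, n = 4) in WT vehicle, 0.794% ± 0.297 in WT IL1β, 1.07% ± 0.488 in Tet2-KO vehicle and 0.849% ± 0.455 in Tet2-KO IL1β mice. Over the 4 comparisons, 2-sided exact permutation tests gave p = 0.1429 for IL1β in WT, 0.4857 for IL1β in Tet2-KO, 1.0 for genotype under vehicle and 0.8571 for genotype under IL1β (Benjamini-Hochberg adjusted 0.5714, 0.9714, 1.0 and 1.0). The smallest p these tests could give was 0.0286. Cells of at least 3000 UMIs were then thinned to 3000 UMIs before gating, and shallower cells were left out. The means were 0.906% ± 0.494, 0.787% ± 0.223, 0.794% ± 0.242 and 1.02% ± 0.49, again with overlapping groups. The difference with IL1β in Tet2-KO changed sign. The cells that passed were not the same, as Tet2-KO IL1β mouse 1 had 5 gated cells before thinning and 10 after. Depth and the change of cells cannot be told apart here.

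**Figure D1:**
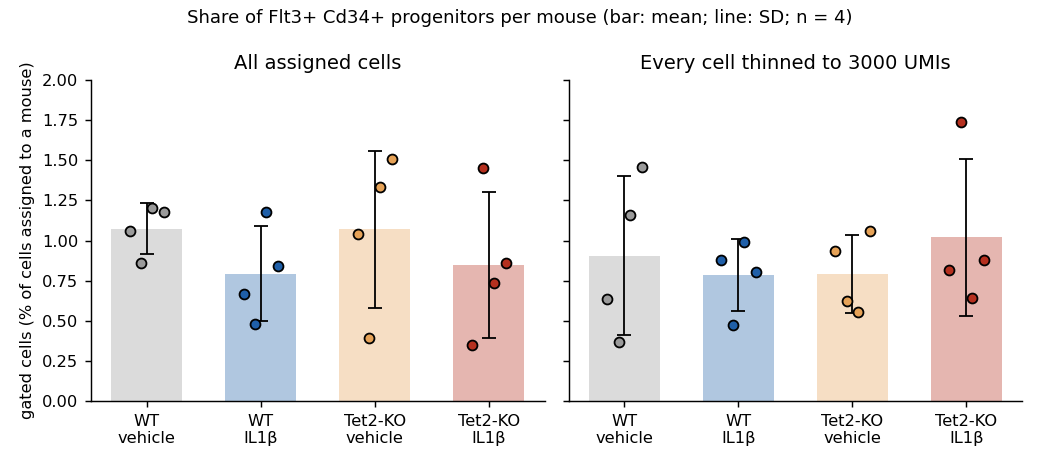
Share of Flt3+ Cd34+ progenitors (percent of cells assigned to a mouse, linear axis from 0) for each of 4 mice in 4 groups. The left panel uses all assigned cells. The right panel uses cells of at least 3000 UMIs, thinned to 3000 UMIs before gating. Bars are means and lines SD. The points of the groups overlap in both panels.

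Gene expression was then compared between groups of mice. UMIs were summed over the gated cells of each mouse with at least 10 of them, which left 3 WT vehicle mice (1, 3 and 4), 4 WT IL1β mice, 3 Tet2-KO vehicle mice (1, 3 and 4) and 3 Tet2-KO IL1β mice (2, 3 and 4), with 46169 to 285326 UMIs per mouse. By these hashtag calls, WT vehicle mouse 2 had 6 gated cells, and Tet2-KO vehicle mouse 2 and Tet2-KO IL1β mouse 1 had 5 each. With the hashtags read by a mixture model they had 16, 62 and 21, and WT IL1β mouse 4 had 78 in place of 12. All 16 mice then had at least 10 gated cells. Which mice were fitted, and from how many cells, therefore depended on the hashtag rule. Levels are CPM scaled by trimmed mean of M values (TMM) factors. By Xist UMIs, WT vehicle mouse 1, WT IL1β mouse 4, Tet2-KO vehicle mouse 1 and Tet2-KO IL1β mice 3 and 4 were read as female. The other fitted mice were read as male, so sex was not balanced between the groups, and it was not a term of the main fit. Genes were tested by quasi-likelihood in edgeR. The p-values were adjusted over 4162 genes by the method of Benjamini and Hochberg, and a gene was called at an adjusted p under 0.05.

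IL1β raised Nfkbia, Tnfaip3, Nfkbiz, Cxcl2, Cd69 and Pim1, among other genes, in gated cells of both genotypes. In WT, 111 of 4162 genes were called (2.67%), 36 higher (0.865%) and 75 lower (1.8%). In Tet2-KO, 262 were called (6.3%), 106 higher (2.55%) and 156 lower (3.75%). Of the genes that rose, 24 were called in both genotypes, 66.7% of the WT list and 22.6% of the Tet2-KO list. Of those that fell, 45 were called in both, 60.0% and 28.8% of the lists, and no gene was called in opposite directions. The larger number in Tet2-KO does not show a larger response, since no gene (0.0%) was called for the interaction of genotype and IL1β, with 260 genes at an unadjusted p under 0.05 and 0 calls by DESeq2. Before any test, 12.7% of genes in WT and 27.1% in Tet2-KO had levels that did not overlap between vehicle and IL1β mice, shares that cannot be set against each other because the groups were 3 against 4 mice in WT and 3 against 3 in Tet2-KO.

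These counts depended on single libraries. In WT, 10 genes were called without the IL1β library of mice 3 and 4, 53 without the vehicle library of mice 3 and 4, and 67 without IL1β mouse 3. In Tet2-KO, 3 were called without the vehicle library of mice 3 and 4, 49 without the IL1β library of mice 1 and 2, in which only mouse 2 was fitted, 81 without the IL1β library of mice 3 and 4, 56 without vehicle mouse 4, 85 without vehicle mouse 3 and 173 without IL1β mouse 4. Leaving out the vehicle library of mice 3 and 4 of either genotype, or the Tet2-KO IL1β library of mice 3 and 4, leaves 1 fitted mouse in that group, which is then assumed to vary like the mice of the other groups. Nfkbia was 1 of the 3 genes called in Tet2-KO in the smallest of these fits, and Cd69, Tnfaip3, Pde4b, Ccl4 and Pf4 were the genes that rose in WT in the smallest. Requiring at least 2 Flt3 UMIs gave 8 calls in WT and 0 in Tet2-KO. Without the 286 cells, 20 of the 36 genes that rose and 43 of the 75 that fell in WT were called again, and 45 of 106 and 41 of 156 in Tet2-KO. In Tet2-KO, DESeq2 called 41 and 68 of these genes, and 44 and 50 were called without cells over 2.5 times the median UMIs. With every cell thinned to 3000 UMIs before gating, 8 of the 36 and 15 of the 75 genes were called again in WT. In Tet2-KO 39 of the 106 and 45 of the 156 were called again. This fit left out cells under 3000 UMIs and summed the unthinned counts of the cells that passed. WT IL1β mice 2 and 4 had 9 such cells each and were not fitted, which left mice 1 and 3 in that group. Tet2-KO IL1β mouse 1 entered with 10 cells. Depth and the change of mice cannot be told apart in this fit. Nfkbia, Tnfaip3, Cd69 and Ier3 were among the 8, while Nfkbiz, Cxcl2, Tnf, Tnip3, Ccl4, Ccl9, Junb, Pim1, Pde4b and Gbp5 were not called in WT. In Tet2-KO these genes were called after thinning, except Gbp5. The globin genes, Cst3, Slpi, Tyrobp and Psmb8 were also not called in WT after thinning.

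Nfkbia, which encodes the NF-κB inhibitor IκBα, kept its call in both genotypes under nearly all alternatives (32 of 34 in WT and 33 of 34 in Tet2-KO). It was at 40.9, 69.1 and 55.1 CPM in WT vehicle mice and at 83.6, 790, 684 and 744 CPM in WT IL1β mice. In Tet2-KO it was at 42.0, 40.8 and 95.1 CPM under vehicle and 518, 1210 and 1010 CPM under IL1β. No vehicle mouse reached an IL1β mouse of its genotype, but WT IL1β mouse 1 lay close to the vehicle mice and within the Tet2-KO vehicle range. The log2 fold change was 3.28 ± 0.56 (SE) in WT (adjusted p = 0.00152) and 3.85 ± 0.528 in Tet2-KO (adjusted p = 0.000273), or 9.69-fold and 14.4-fold.

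Tnfaip3, whose product A20 removes ubiquitin chains that activate NF-κB, was at 0 UMIs in all 3 WT vehicle mice. It was at 57.5, 209, 225 and 307 CPM in WT IL1β mice, at least 28.4-fold higher when the vehicle group is set to 3 UMIs over the group (adjusted p = 0.000369). In Tet2-KO it was at 21.0, 4.54 and 4.13 CPM under vehicle and 157, 326 and 213 CPM under IL1β, a log2 fold change of 4.63 ± 0.624 (adjusted p = 0.000273). Tnip3, which encodes a partner of A20, was at 0, 27.7 and 11 CPM in WT vehicle mice and 10.5, 256, 151 and 194 CPM in WT IL1β mice, so these groups overlapped at mouse 1. In Tet2-KO it was at 21.0, 9.08 and 4.13 CPM under vehicle and 136, 231 and 294 CPM under IL1β. Its log2 fold change was 3.24 ± 0.798 in WT (adjusted p = 0.0234) and 4.31 ± 0.719 in Tet2-KO (adjusted p = 0.00168). The WT call of Tnip3 was lost without WT IL1β mouse 3 (2.93, adjusted p = 0.165) and without WT vehicle mouse 4 (3.15, adjusted p = 0.0962). It was also lost without the 286 cells with markers of another type (2.68, adjusted p = 0.113). Nfkbiz, an atypical IκB that acts in the nucleus, rose by 3.63 ± 0.675 (adjusted p = 0.00246) in WT and 2.91 ± 0.568 (adjusted p = 0.00468) in Tet2-KO. The Tet2-KO vehicle library of mice 3 and 4 was also left out, which leaves 1 vehicle mouse. The Tet2-KO changes were then 1.73 for Nfkbiz, 3.37 for Tnfaip3 and 3.30 for Tnip3.

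Cxcl2, Tnf, Ccl4 and Ccl9, which encode cytokines, rose as well. Cxcl2, a neutrophil chemokine, was at 0 UMIs in all 6 vehicle mice. It was at 15.7, 256, 133 and 340 CPM in WT IL1β mice and 68.0, 270 and 140 CPM in Tet2-KO IL1β mice, at least 20.6-fold and at least 28.0-fold higher against 3 UMIs over the vehicle group (adjusted p = 0.00808 and 0.00489). Tnf, which encodes tumour necrosis factor, was at 17.5, 6.91 and 5.51 CPM in WT vehicle mice and 0, 209, 220 and 243 CPM in WT IL1β mice, so mouse 1 fell below the vehicle mice. In Tet2-KO it was at 7, 0 and 0 CPM under vehicle, a single UMI, and 51.0, 239 and 279 CPM under IL1β. It was called in both genotypes (adjusted p = 0.0348 and 0.00481), but not in WT without IL1β mouse 3 (log2 3.14, adjusted p = 0.288) or without vehicle mouse 4 (3.43, adjusted p = 0.134). The WT call was also lost without the 286 cells (4.76, adjusted p = 0.0524). The chemokines Ccl4 and Ccl9 rose in both, Ccl4 by 2.93 ± 0.665 (adjusted p = 0.012) in WT and 2.63 ± 0.64 (adjusted p = 0.0177) in Tet2-KO. DESeq2 called Ccl4 in neither genotype (3.08, adjusted p = 0.0524, and 2.40, adjusted p = 0.193). Without the Tet2-KO vehicle library of mice 3 and 4, which leaves 1 vehicle mouse, its Tet2-KO change was 1.11 (adjusted p = 0.67).

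Cd69, Junb, Pim1, Pde4b and Ier3 were higher too. Cd69, an activation marker that retains lymphocytes in tissue, was at 123, 180 and 138 CPM in WT vehicle and 261, 1740, 1340 and 1120 CPM in WT IL1β mice. In Tet2-KO mice it was at 224, 259 and 149 CPM under vehicle and 1120, 1660 and 1680 CPM under IL1β. The groups did not overlap in either genotype, and the log2 fold changes were 2.87 ± 0.414 (adjusted p = 0.000454) and 2.82 ± 0.402 (adjusted p = 0.000297). Junb, an AP-1 subunit, was at 193, 118 and 66.1 CPM in WT vehicle and 251, 697, 583 and 825 CPM in WT IL1β mice, and at 693, 127 and 157 against 1080, 1110 and 1050 CPM in Tet2-KO mice. It rose by 2.15 ± 0.485 (adjusted p = 0.0117) and 1.80 ± 0.439 (adjusted p = 0.0177). In Tet2-KO Junb was not called without the 286 cells, by DESeq2 or without cells over 2.5 times the median UMIs. Pim1, a kinase gene induced by cytokine receptors, rose 3.81-fold (adjusted p = 0.00328) and 3.52-fold (adjusted p = 0.00584). The phosphodiesterase gene Pde4b and the survival gene Ier3 also rose in both genotypes, by 8.75-fold and 4.86-fold in WT and 7.46-fold and 6.38-fold in Tet2-KO. Their Tet2-KO log2 changes were 1.87 and 1.56 without the vehicle library of mice 3 and 4, which leaves 1 vehicle mouse.

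WT IL1β mouse 1 stood apart from the other IL1β mice. It had the lowest level of the 4 for Nfkbia, Tnfaip3, Tnip3, Nfkbiz, Cxcl2, Tnf, Cd69, Junb, Pim1, Pde4b, Ier3 and Gbp5, while mouse 2 of the same pool was above it for all of these. Other genes that rose went another way: Ccl4 was at 580, 1020, 220 and 226 CPM in mice 1 to 4 and Ccl9 at 240, 325, 326 and 210 CPM, so mouse 1 was not the lowest for these. Mouse 1 was also lowest for these genes with the hashtags read by a mixture model, and its Nfkbia was the lowest of the 4 in the HSC gate (98.3 CPM against 720 to 1240), the myeloid gate (92.1 against 413 to 680) and the erythroid gate (108 against 267 to 314). Without it, the WT log2 fold changes were 3.73 for Nfkbia, 3.83 for Tnip3, 4.37 for Tnf and 3.24 for Cd69 (adjusted p = 9.66e-07, 0.000327, 0.000365 and 5.27e-08).

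**Figure D2:**
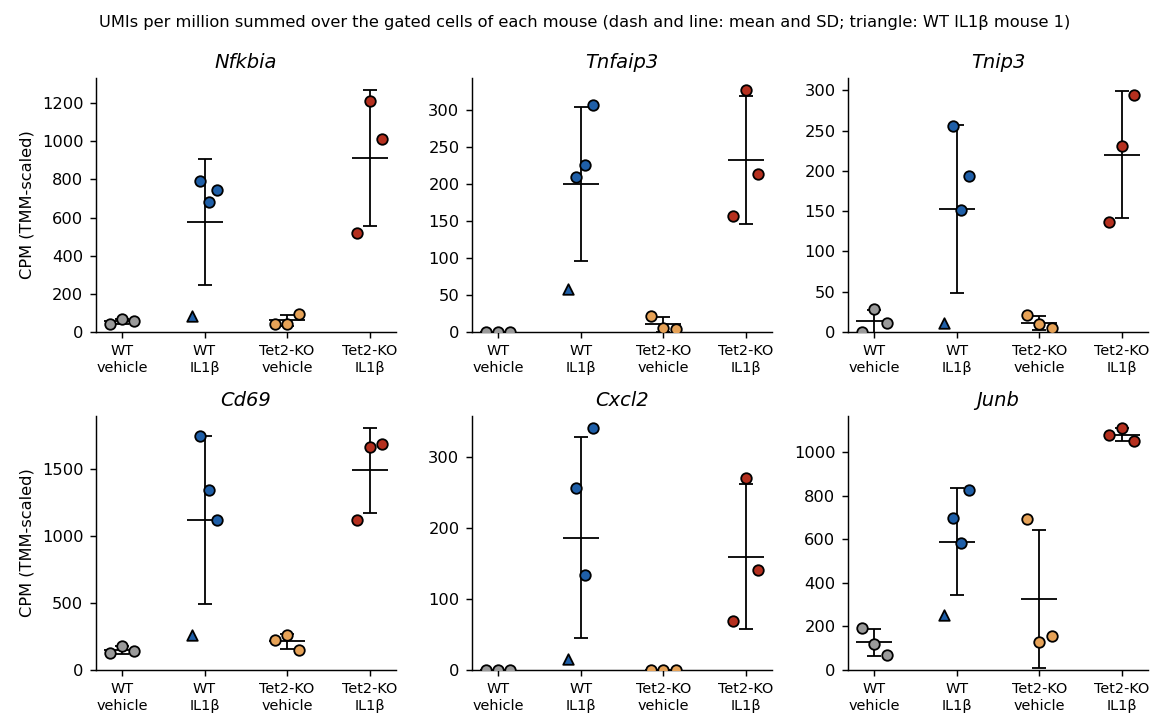
Level (TMM-scaled CPM, linear axis from 0) of 6 genes in the gated cells of each of 13 mice in 4 groups, with mean and SD as dash and line and WT IL1β mouse 1 as a triangle. The IL1β mice other than WT mouse 1 lie above the vehicle mice of their genotype for all 6 genes, and the triangle lies near the vehicle mice.

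Sequences upstream of the induced genes were searched for GGANTTTCC, a form of the site bound by NF-κB, on both strands from 250 bases before to 50 bases after the annotated start (RefSeq, GRCm38.p6). Of the 24 genes that rose in both genotypes, 16 matched an entry, and 5 of these (31.2%) held a match: Cxcl2, Gbp5, Ier3, Nfkbia and Tnfaip3. Gbp5 was not called in WT without the 286 cells (2.59, adjusted p = 0.241), IL1β mouse 3 (3.57, adjusted p = 0.116) or vehicle mouse 4 (3.44, adjusted p = 0.118). Of the 37 matched genes that fell in both, 0 did. Of all matched genes that rose, 5 of 25 (20.0%) in WT and 9 of 83 (10.8%) in Tet2-KO held a match. The share was 1.45% of all 27025 promoters and 1.5% of the 3275 matched genes tested. A match describes the letters and does not show that the site is used. To show where the letters sit in 3 of the induced genes, 120 bases around the match are printed 5′ to 3′ along the strand of the gene, with the match in capitals. They are Nfkbia at chr12:55492761-55492880 (minus strand), Cxcl2 at chr5:90903748-90903867 (plus strand) and Gbp5, an interferon- and cytokine-induced GTPase gene, at chr3:142496802-142496921 (plus strand, matched as the reverse complement).
Nfkbia: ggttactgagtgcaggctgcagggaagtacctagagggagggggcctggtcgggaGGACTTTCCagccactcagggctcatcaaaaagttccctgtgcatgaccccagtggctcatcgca
Cxcl2: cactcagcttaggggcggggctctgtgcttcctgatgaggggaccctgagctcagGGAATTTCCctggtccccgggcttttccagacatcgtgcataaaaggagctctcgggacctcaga
Gbp5: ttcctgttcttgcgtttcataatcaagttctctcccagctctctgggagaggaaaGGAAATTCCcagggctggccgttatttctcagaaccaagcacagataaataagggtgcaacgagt
The printed match starts 178 bases before the start of Nfkbia, which held 2 matches in the window searched, 96 before that of Cxcl2 and 77 before that of Gbp5.

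Under IL1β, most cells held several of the induced genes. Each gated cell of at least 3000 UMIs was thinned to 3000 UMIs and scored for how many of Nfkbia, Tnfaip3, Tnip3, Nfkbiz, Cd69 and Pim1 it held. At least 3 of the 6 were detected in 3.77% of 106 WT vehicle cells, 54.2% of 131 WT IL1β cells, 8.67% of 150 Tet2-KO vehicle cells and 67.2% of 116 Tet2-KO IL1β cells. By mouse, the share in WT IL1β was 14.3% in mouse 1 and 77.8%, 75.0% and 60.0% in mice 2 to 4, from 35, 9, 40 and 10 cells. None of the 6 was detected in 49.1% and 34.7% of vehicle cells of WT and Tet2-KO, and in 11.5% and 6.9% under IL1β. The cells of 1 mouse are not replicates, so these shares carry no test.

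Single genes were detected in more cells under IL1β. Cd69 was detected in 23.6% of thinned WT vehicle cells and 66.4% of WT IL1β cells (unthinned 30.3% and 73.0%), against 1.11% and 4.92% in the erythroid gate. In Tet2-KO the shares were 33.3% and 67.2% (unthinned 34.3% and 76.6%), against 1.36% and 4.28%. Tnip3 went from 0.943% to 26.7% in WT and from 2.67% to 37.9% in Tet2-KO after thinning (unthinned 3.03% to 32% and 2.64% to 41.3%). The erythroid gate held it in at most 0.573% after thinning and 1.34% unthinned. Nfkbia was detected in 16.0% and 55% of thinned WT cells and in 14.7% and 69.8% of thinned Tet2-KO cells (unthinned 18.2%, 64.9%, 17% and 79.6%). The thinned erythroid gate held Nfkbia in 2.75%, 43.4%, 3.00% and 37.8%, so its share also differed with IL1β outside the gated cells. The smaller erythroid shares of Cd69 given above were higher with IL1β too. In WT, those of Tnfaip3 went from 0.567% to 14.1% and those of Junb from 7.39% to 33.6%.

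Few components of the IL1 pathway itself were measurable. Il1r1, the signalling receptor, was detected in 65 gated cells (7.69%, thinned 5.69%) and 2.19% of other cells, against 3.39% (thinned 1.04%) in the erythroid gate. Il1rap, the co-receptor, was detected in 2.96% (thinned 2.09%) against 5.01% (thinned 1.21%) in the erythroid gate, and neither had enough UMIs to be tested. Of 33 genes on the IL1 and NF-κB list, 14 could be tested. Nfkbia, Nfkbiz and Tnfaip3 rose in WT, and these and Birc3, an inhibitor of apoptosis, rose in Tet2-KO, with list medians of 0.458 and 0.967 on the log2 scale against 0.0244 and 0.0223 over all genes. Birc3 was not called without the 286 cells, by DESeq2 or without cells over 2.5 times the median UMIs. Nfkb1, the p105 subunit, was 0.497 ± 0.282 (adjusted p = 0.429) and 0.669 ± 0.27 (adjusted p = 0.137), and did not pass.

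**Figure D3:**
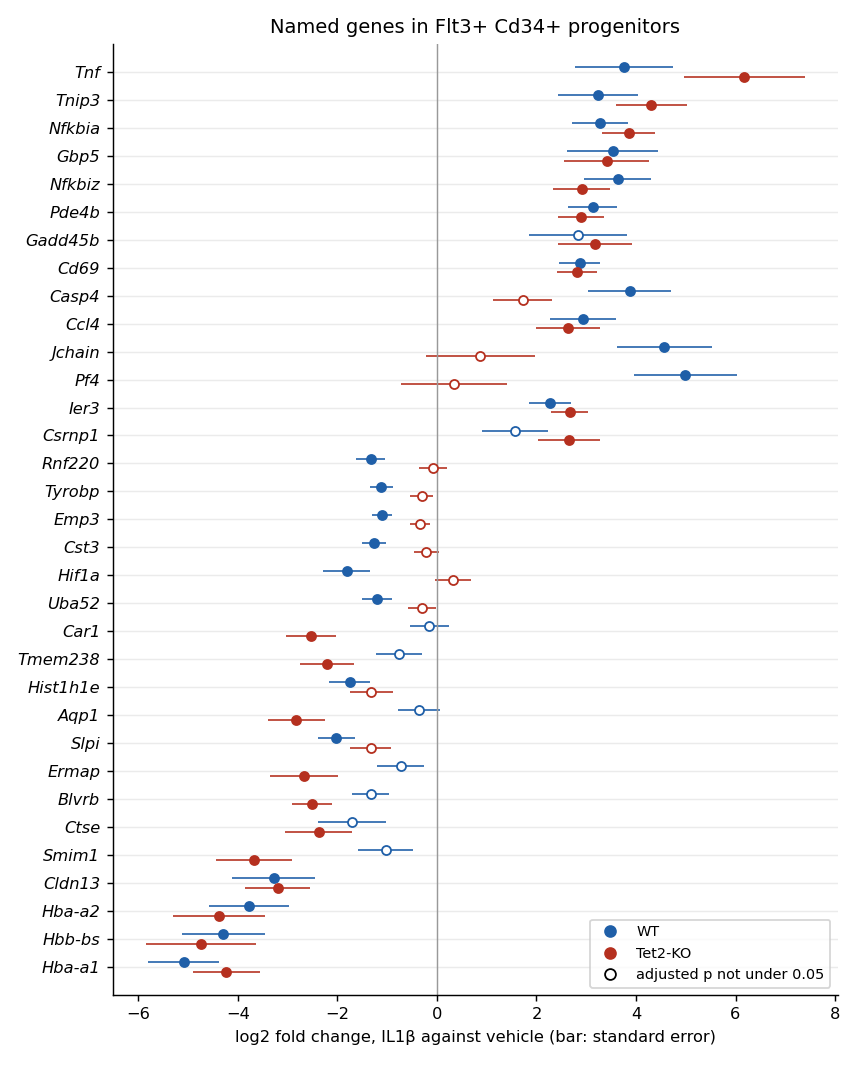
Log2 fold change of IL1β against vehicle with its standard error for 33 named genes in WT (blue) and Tet2-KO (red), with open points where the adjusted p is not under 0.05. Cxcl2 and Tnfaip3 are left out because a vehicle group was at 0. Tnf, Tnip3, Nfkbia and Cd69 lie to the right in both genotypes, and the haemoglobin genes to the left in both.

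Most erythroid marker genes were lower with IL1β. Of 6 tested, 3 fell in WT and 5 in Tet2-KO (of all genes, 1.8% and 3.75% fell), and the β-globin gene Hbb-bt was called in neither (-1.26, adjusted p = 0.341, and 0.144, adjusted p = 0.911). Hba-a1, an α-globin gene, was at 87.6, 463 and 904 CPM in WT vehicle mice and 10.5, 0, 18.4 and 16.2 CPM in WT IL1β mice. In Tet2-KO it was at 238, 327 and 691 against 21.2, 23.9 and 22.1 CPM. The groups did not overlap, and it fell by 5.09 ± 0.712 on the log2 scale in WT (adjusted p = 0.000369) and by 4.23 ± 0.672 in Tet2-KO (adjusted p = 0.00103). Hbb-bs, Hba-a2 and Cldn13, a claudin gene of erythroid precursors, fell in both genotypes too. Car1, a carbonic anhydrase of erythroid cells, fell in Tet2-KO by 2.53 ± 0.5 (adjusted p = 0.00489), from 350, 495 and 327 to 29.7, 127 and 66.2 CPM. In WT its change was -0.155 ± 0.395 (adjusted p = 0.901). Smim1, Aqp1, Ermap, Blvrb, Ctse and Cpox, genes of the red cell membrane and haem metabolism among others, also fell in Tet2-KO and did not pass in WT, and none of these differences between genotypes was called by the interaction test.

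The globin result depended on the assignment of cells to mice. With the mixture model, Hba-a1 in Tet2-KO was -0.734 (adjusted p = 0.595), and with whole libraries as replicates it was -1.22 (adjusted p = 0.234). In WT it was -4.13 (adjusted p = 0.0252) and -4.33 (adjusted p = 0.00379). Smim1 (-1.70, adjusted p = 0.0934), Ermap (-1.45, adjusted p = 0.0877), Ctse (-0.761, adjusted p = 0.452) and Cpox (-0.975, adjusted p = 0.0909) in Tet2-KO were not called with the mixture model. Neither were Hbb-bs (-0.823, adjusted p = 0.615, and -1.56, adjusted p = 0.243) and Hba-a2 (-0.102, adjusted p = 0.955, and -0.479, adjusted p = 0.688) in Tet2-KO with the mixture and with libraries. Car1 in Tet2-KO kept its call in both (-1.80 and -2.05), but not after thinning or without cells over 2.5 times the median UMIs, and over its alternatives it was called in 26 of 32, with changes down to -0.354. Summed over the 8 erythroid markers, the vehicle mice of WT held 964 to 3800 CPM and those of Tet2-KO 1060 to 2270 CPM, against 209 to 1070 and 255 to 882 CPM with IL1β. The 44 cells with at least 3 of these markers are among the 286 cells. Without the 286 cells, the globin genes, Cldn13, Car1, Smim1, Aqp1, Ermap, Blvrb, Ctse and Cpox had too few UMIs left to be tested. The part of erythroid cells in these changes was not tested. Without vehicle mouse 4, which had 1430 CPM of Hbb-bs, the WT calls of Hbb-bs (-2.36, adjusted p = 0.107), Hba-a2 (-2.85, adjusted p = 0.106) and Cldn13 (-2.96, adjusted p = 0.147) were lost. Hba-a2 in WT was also lost with the mixture model (-3.23, adjusted p = 0.101) and without IL1β mouse 3 (-3.42, adjusted p = 0.0752). Cldn13 in WT was lost by DESeq2 (-3.33, adjusted p = 0.0586) and without IL1β mouse 1 (-2.70, adjusted p = 0.108).

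Ribosomal protein genes were the largest group that was lower. Of 89 tested, 36 fell and 2 rose in WT, and 33 fell and 1 rose in Tet2-KO (of all genes, 1.8% and 3.75% fell), with medians of -0.341 and -0.312 on the log2 scale. Of the 45 genes that fell in both genotypes, 28 were ribosomal protein genes. Together they made up 341000 to 366000 CPM in WT vehicle mice and 269000 to 306000 in WT IL1β mice. In Tet2-KO they made up 342000 to 390000 CPM under vehicle and 291000 to 316000 under IL1β. The groups did not overlap in either genotype. CPM of other genes are relative to this large share. The 13 mitochondrially encoded genes summed to 42500 to 48400 and 53900 to 58700 CPM in WT and 42400 to 51100 and 53300 to 58200 CPM in Tet2-KO, and mt-Co1 and mt-Co2 rose in both. The mt-Co2 call was lost in both without the 286 cells. Without TMM factors, calls in WT were 52 higher and 55 lower, and in Tet2-KO 145 higher and 100 lower.

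Cst3, Slpi and Tyrobp, which myeloid cells express, were among the other genes that fell. In WT, Cst3 (cystatin C) went from 1600, 809 and 2080 CPM to 612, 511, 711 and 631 CPM, a fall of 1.26 ± 0.243 (adjusted p = 0.00322). Slpi, a protease inhibitor, and Tyrobp, a signalling adaptor, fell in WT by 2.02 ± 0.38 (adjusted p = 0.00272) and 1.12 ± 0.227 (adjusted p = 0.00493). In Tet2-KO the 3 genes were at -0.211, -1.33 and -0.306 and did not pass. Without the 286 cells, Cst3 (-1.07, adjusted p = 0.0544) and Tyrobp (-1.26, adjusted p = 0.0983) were not called and Slpi had too few UMIs to be tested. Psmb8, an immunoproteasome subunit, fell in both genotypes, by 0.984 ± 0.211 in WT (adjusted p = 0.00805) and 0.888 ± 0.209 in Tet2-KO (adjusted p = 0.0147), and was called in both without those cells.

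Pf4 and Jchain also rose in WT, with levels uneven between mice, and the call of Pf4 rested on mouse 1. Pf4, a platelet chemokine, was at 11.7, 6.91 and 5.51 CPM in vehicle mice and 701, 0, 36.7 and 194 CPM in IL1β mice, and without IL1β mouse 1 its adjusted p was 0.131. Jchain, of plasma cells, was at 1200 CPM in IL1β mouse 3 and 48.5 to 139 in the other IL1β mice, against 11 to 27.7 in vehicle mice. It was not tested without IL1β mouse 3, since too few UMIs were left. Without the 286 cells Jchain was not called (2.55, adjusted p = 0.105) and Pf4 had too few UMIs to be tested.

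Lists of fate and state genes held 0 to 4 called genes each, and some list medians lay above those of all genes. Of 13 multipotent progenitor markers tested, none was called in WT, with a median of 0.0849 and 8 higher. Myb and Sox4 rose in Tet2-KO, where 2.55% of all genes rose, with a median of 0.555 and 9 higher. Sox4 was at 1070, 640 and 674 CPM in Tet2-KO vehicle and 1390, 1840 and 1810 CPM in Tet2-KO IL1β mice, a change of 1.09 ± 0.294 (adjusted p = 0.0301). In WT it was at 403, 795 and 705 against 559, 1860, 1060 and 889 CPM and did not pass (0.724 ± 0.29, adjusted p = 0.234). Satb1 and Mef2c, regulators of lymphoid priming, were at 0.0849 ± 0.257 and -0.0332 ± 0.198 in WT and 0.296 ± 0.257 and -0.093 ± 0.204 in Tet2-KO. Of 11 lymphoid priming genes, Cd52 fell in WT, though not without the 286 cells, and none was called in Tet2-KO (medians -0.0332 and 0.195).

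Among 16 stem cell genes, Runx1, a transcription factor of stem cell formation, rose in Tet2-KO from 280, 195 and 203 to 459, 429 and 412 CPM (0.964 ± 0.239, adjusted p = 0.0196). The list medians were 0.4 in WT and 0.627 in Tet2-KO on the log2 scale, with 11 and 13 of the 16 genes higher, against 2161 and 2147 of all 4162. None of 15 myeloid priming genes was called in either genotype, with medians of 0.0805 and 0.0737. Of 11 megakaryocyte and erythroid priming genes, Itga2b and Pf4 rose in WT, and in Tet2-KO Gata2 and Cited2 rose and Car1 and Zfpm1 fell, larger shares than the 2.67% and 6.3% of all genes. Gata2, a factor of stem and megakaryocyte-erythroid progenitors, went from 56.0, 63.5 and 62 to 178, 143 and 169 CPM in Tet2-KO (1.43 ± 0.317, adjusted p = 0.0107). Without the 286 cells, Itga2b in WT and Runx1, Gata2, Cited2, Zfpm1 and Myb in Tet2-KO were not called. Sox4 in Tet2-KO was called there, but not by DESeq2 or without cells over 2.5 times the median UMIs.

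Of 37 S phase genes none was called in WT and Fen1 fell in Tet2-KO, and of 40 G2M genes none was called in WT and Rangap1 and Tubb4b fell in Tet2-KO (medians 0.0487 and -0.416). Of 18 ribosome biogenesis genes, 0 were called in WT and Rrs1, Nhp2 and Nop56 fell in Tet2-KO (medians -0.209 and -0.583). Of all genes, 6.3% were called in Tet2-KO, so the shares of called S phase and G2M genes were below that background and the share of ribosome biogenesis genes was above it. None of these 6 genes was called without the 286 cells. Psmb8 was the only one of 17 interferon response genes called in either genotype (medians -0.333 and 0.39). The 5 MHC class II genes tested had medians of -1.39 and 1.54 with no call, and their sum was between 245 and 1240 CPM in vehicle mice, 139 to 469 CPM in WT IL1β and 632 to 2000 CPM in Tet2-KO IL1β mice. Of 8 MHC class I genes, Tap1 and Tapbp, which load peptide, rose in Tet2-KO by 1.05 ± 0.278 (adjusted p = 0.0272) and 1.06 ± 0.278 (adjusted p = 0.0256). This share too was above 6.3%, and neither gene was called without the 286 cells.

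Calls on the remaining lists were of single genes, and in Tet2-KO most genes of some lists were higher and of others lower. Of all 4162 genes, 2161 were higher in WT and 2147 in Tet2-KO. All 13 cytokine receptor genes, all 7 JAK-STAT genes, 14 of 16 homing genes and 12 of 14 stress signature genes were higher with IL1β in Tet2-KO, against 10, 6, 9 and 13 in WT. Leaning the other way in Tet2-KO, 6 of 40 G2M, 3 of 18 ribosome biogenesis, 4 of 13 heat shock and 4 of 14 unfolded protein response genes were higher. In WT these counts were 24, 6, 5 and 7. Of all genes, 2.67% in WT and 6.3% in Tet2-KO were called, and nothing is read from 1 called gene on a list. Pim1 rose in both genotypes among 7 JAK-STAT genes (medians 0.666 and 0.787) and Dusp2 among 14 genes of a stress signature (0.613 and 0.628), and Ppib, a folding enzyme, fell in both among 14 unfolded protein response genes (0.0271 and -0.205). Il2rg, the common γ chain, rose in Tet2-KO among 13 cytokine receptors (medians 0.108 and 0.656), and Hspe1 fell among 13 heat shock genes (-0.0279 and -0.332). Bax fell in Tet2-KO among 5 survival genes (-0.411 and 0.445), and Cd52 fell in WT among 16 homing genes (0.176 and 0.577). Il2rg, Hspe1, Bax and Cd52 were not called without the 286 cells. No gene was called among 7 S100 genes (-0.288 and 0.321), 9 glycolysis genes (-0.236 and -0.159), 9 DNA methylation enzymes (0.135 and -0.00148) or 11 G1 cell cycle genes (0.159 and 0.347).

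**Figure D4:**
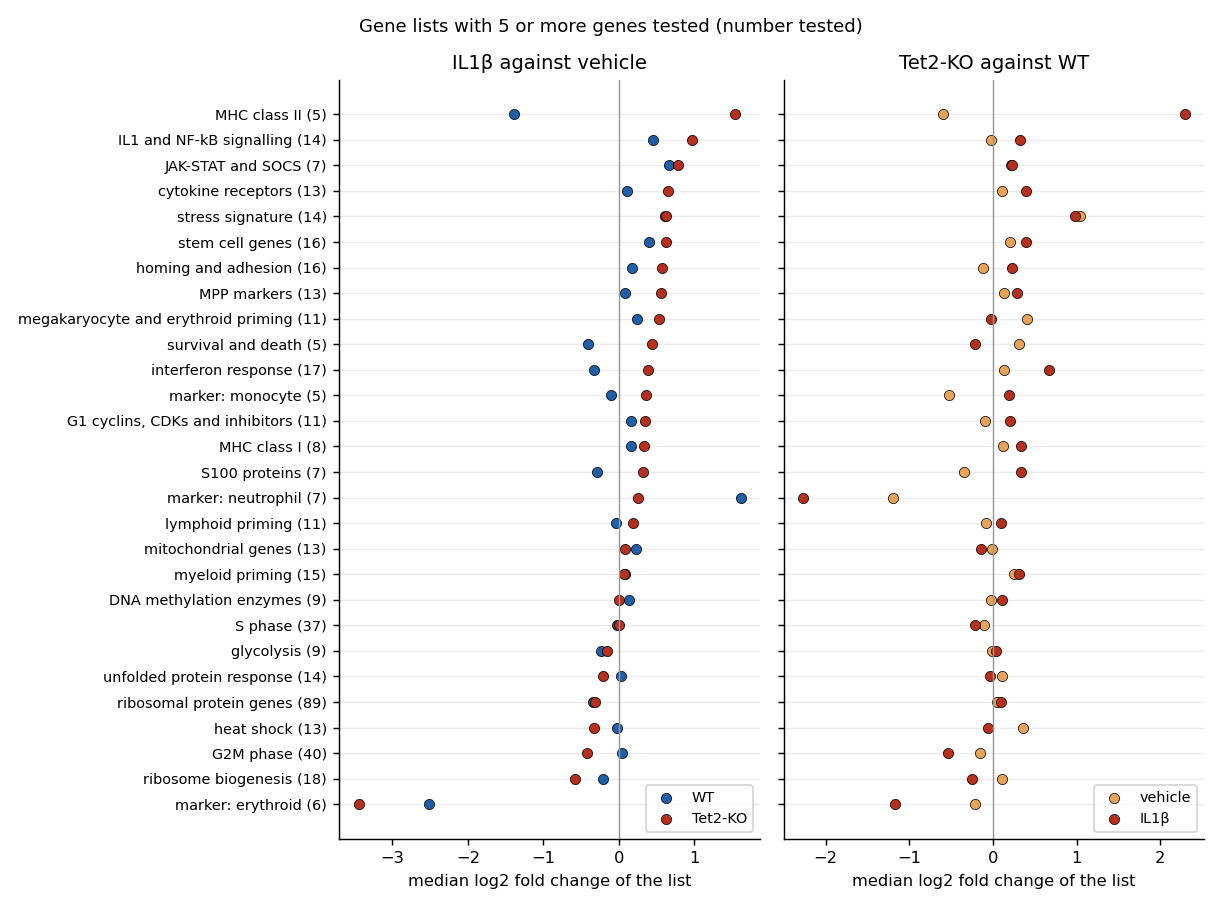
Median log2 fold change of each gene list with at least 5 genes tested, with the number tested in brackets, for IL1β against vehicle in each genotype (left) and Tet2-KO against WT in each treatment (right). The erythroid markers lie furthest to the left with IL1β in both genotypes, and the stress signature lies near 1 for genotype in both treatments.

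Loss of Tet2 was compared within each treatment. Tet2 itself was at 57.5 ± 12.4 CPM in WT vehicle (SD, n = 3) and 82.0 ± 12.5 in WT IL1β mice (n = 4), and at 59.4 ± 11.9 and 91.6 ± 42.1 CPM in Tet2-KO mice (n = 3 each). Tags were counted at the 3′ end of the transcript, so these values do not check the deletion. No gene (0.0%) was called between genotypes under vehicle and none (0.0%) under IL1β, with 167 and 428 genes at an unadjusted p under 0.05. DESeq2 called 0 genes under vehicle and 1 under IL1β, the tubulin gene Tuba1b (lower). Under vehicle, 6 genes were called without the Tet2-KO vehicle library of mice 3 and 4 and 2 without the WT vehicle library of mice 3 and 4, each fit with 1 mouse left in that group.

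Jun, an AP-1 subunit, had the smallest adjusted p under IL1β together with Car1. It was at 514, 719 and 540 CPM in WT vehicle and 2160, 1030 and 740 CPM in Tet2-KO vehicle mice. Under IL1β it was at 936, 651, 697 and 760 CPM in WT and 2530, 1340 and 1570 CPM in Tet2-KO mice. The genotypes did not overlap in either treatment, and the log2 differences were 1.14 ± 0.288 (adjusted p = 1.0) and 1.24 ± 0.267 (adjusted p = 0.187). Over all genes, 9.25% and 9.2% did not overlap between genotypes under vehicle and IL1β.

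Jun belongs to a 15-gene stress signature that the study chose on HSCs of these mice, so the list is not independent evidence of its direction. Of its 14 genes tested, 14 were higher in Tet2-KO under vehicle (median 1.04) and 13 under IL1β (median 0.987), with no call. Of all 4162 genes, 2129 and 2124 were higher. Other lists leaned as well under IL1β, where 16 of 17 interferon response and 5 of 5 MHC class II genes were higher. The G2M and S phase lists leaned the other way, with 3 of 40 and 7 of 37 genes higher. Summed, the stress signature was at 2930, 2740 and 2100 CPM in WT vehicle and 10900, 3380 and 2610 CPM in Tet2-KO vehicle mice. Under IL1β it was at 5790, 3950, 2780 and 2600 CPM in WT and 13200, 4710 and 5130 CPM in Tet2-KO mice. Each group's highest sum was in a mouse of the pool of mice 1 and 2. Fos, another early response gene, also differed by pool, with 1670 and 1860 CPM in Tet2-KO mice of that pool and 143 to 413 CPM in the other Tet2-KO mice, against 1120 CPM in WT IL1β mouse 1. Of the 14 genes, 8 were higher in the pool of mice 1 and 2 than in that of mice 3 and 4 in all 4 groups (57.1%), against 4.35% of all genes tested. A further fit held 1 term for mice 1 and 2 against mice 3 and 4, shared by the 4 groups. It takes the like-numbered pools of different groups as 1 batch, which the labels do not say. In it, 0 genes were called between genotypes under vehicle and 3 under IL1β, all higher in Tet2-KO and all on the stress signature list. They were Egr1 (1.83 ± 0.242, adjusted p = 0.000314), Jun (1.27 ± 0.228, adjusted p = 0.0182) and Jund (1.06 ± 0.206, adjusted p = 0.0367), where the fit without that term gave 1.70, 1.24 and 0.988 (adjusted p = 0.223, 0.187 and 0.197).

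The change with IL1β was finally set beside that in 2 other gates of the same 13 mice, stem cell-like cells (1124 cells, called the HSC gate) and Mpo-high myeloid progenitors (3272 cells), by a test of the difference between the changes. Against the HSC gate, 1 of 5098 genes differed in WT (0.0196%), higher in Flt3+ Cd34+ progenitors (0.0196%), and none (0.0%) in Tet2-KO. That gene was Pf4, a platelet gene. In the HSC gate it was at 3330, 1350 and 5040 CPM of the gate's own UMIs in WT vehicle mice. In WT IL1β mice it was at 3500, 69.1, 814 and 5650 CPM there. Over all libraries it was at 77.9 CPM in Flt3+ Cd34+ progenitors and 727 CPM in all other cells. Whether megakaryocyte-lineage cells passed the HSC gate was not tested. DESeq2 called 0 genes in this comparison. By edgeR, the WT count was 3 without WT vehicle mouse 3 and 2 without WT IL1β mouse 4 or Tet2-KO IL1β mouse 3. The Tet2-KO count was 2 to 8 when any of Tet2-KO IL1β mice 3 and 4, Tet2-KO vehicle mice 1 and 3 or WT vehicle mice 1, 3 and 4 was left out. For Nfkbia the difference was -0.732 ± 0.402 in WT and 0.172 ± 0.374 in Tet2-KO (adjusted p = 1.0 in both), and for Cd69 -1.15 ± 0.476 and -1.39 ± 0.488 (adjusted p = 1.0 and 0.789). These p-values do not show that the gates respond alike.

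Against the myeloid gate, 9 of 6167 genes differed in WT (0.146%), 1 higher (0.0162%) and 8 lower (0.13%). In Tet2-KO 11 differed (0.178%), 4 higher (0.0649%) and 7 lower (0.114%). Cathepsin G (Ctsg), a granule protease, was the gene that was higher in WT by difference (1.20, adjusted p = 0.0139), and its call was lost without WT IL1β mouse 1 (0.931) or 3 and without WT vehicle mouse 4. In the myeloid gate it was at 1250, 1060 and 1060 CPM in WT vehicle and 758, 738, 571 and 620 CPM in WT IL1β mice, while Flt3+ Cd34+ progenitors of these mice had 183, 173 and 141 against 337, 217, 190 and 75.8 CPM. Cd74, the MHC class II invariant chain, differed in both genotypes in opposite directions, by -4.31 (adjusted p = 0.0146) in WT and 4.76 (adjusted p = 0.00223) in Tet2-KO. Its level in gated cells was uneven between mice, with 12.0 to 433 CPM in WT vehicle and 105 to 543 CPM in Tet2-KO IL1β mice. The 6 class II dendritic cell markers, of which Cd74 is 1, summed to 75.9, 41.5 and 965 CPM in WT vehicle mice. In Tet2-KO IL1β mice they summed to 735, 1580 and 235 CPM, and their part in this result was not tested. Without WT vehicle mouse 4 the WT difference of Cd74 was -0.552 and not called, nor was it called without WT IL1β mouse 3 (-4.44, adjusted p = 0.0646). In Tet2-KO the Cd74 call was lost without IL1β mouse 2 (4.0, adjusted p = 0.0783) or vehicle mouse 4 (3.23, adjusted p = 0.12). DESeq2 called 0 genes against the myeloid gate in WT and 3 in Tet2-KO. By edgeR, 1 gene was called in WT without IL1β mouse 3 or vehicle mouse 4 and 4 without vehicle mouse 3, and in Tet2-KO 6 without IL1β mouse 4 and 3 without vehicle mouse 4. The remaining lower differences were mostly erythroid genes, among them Hba-a1 and Hbb-bs in WT and Car1, Blvrb, Smim1 and Ermap in Tet2-KO. Hba-a1, Hbb-bs, Car1 and Ermap are on the list behind the erythroid marker sums above, so those sums are no separate measure. The part of erythroid cells in these differences was not tested.

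Cd69 and Tnip3 had higher mean levels in Flt3+ Cd34+ progenitors than in the myeloid gate, without a called difference in their response. Under IL1β, Cd69 was at 1040 ± 586 CPM of the gate's own UMIs in WT (SD, n = 4) and 1330 ± 286 CPM in Tet2-KO mice (n = 3), against 382 ± 171 and 503 ± 216 CPM in the myeloid gate. Its difference in change was 1.12 ± 0.294 (adjusted p = 0.234) in WT and 1.11 ± 0.271 (adjusted p = 0.087) in Tet2-KO. That of Tnip3 had the other sign, -1.34 ± 0.966 (adjusted p = 0.946) and -1.94 ± 1.05 (adjusted p = 0.785). Tnip3 was at 143 ± 97.3 and 197 ± 70.7 CPM against 59.8 ± 67.7 and 62.8 ± 46.1 CPM. In the HSC gate Cd69 was at 1630 ± 1340 and 1530 ± 1220 CPM and Tnip3 at 228 ± 270 and 171 ± 108 CPM. Both genes were far lower in the erythroid gate, where Cd69 was at 68.4 ± 19.9 and 45.3 ± 6.1 CPM and Tnip3 at 3.99 ± 2.72 and 3.25 ± 2.61 CPM.

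**Figure D5:**
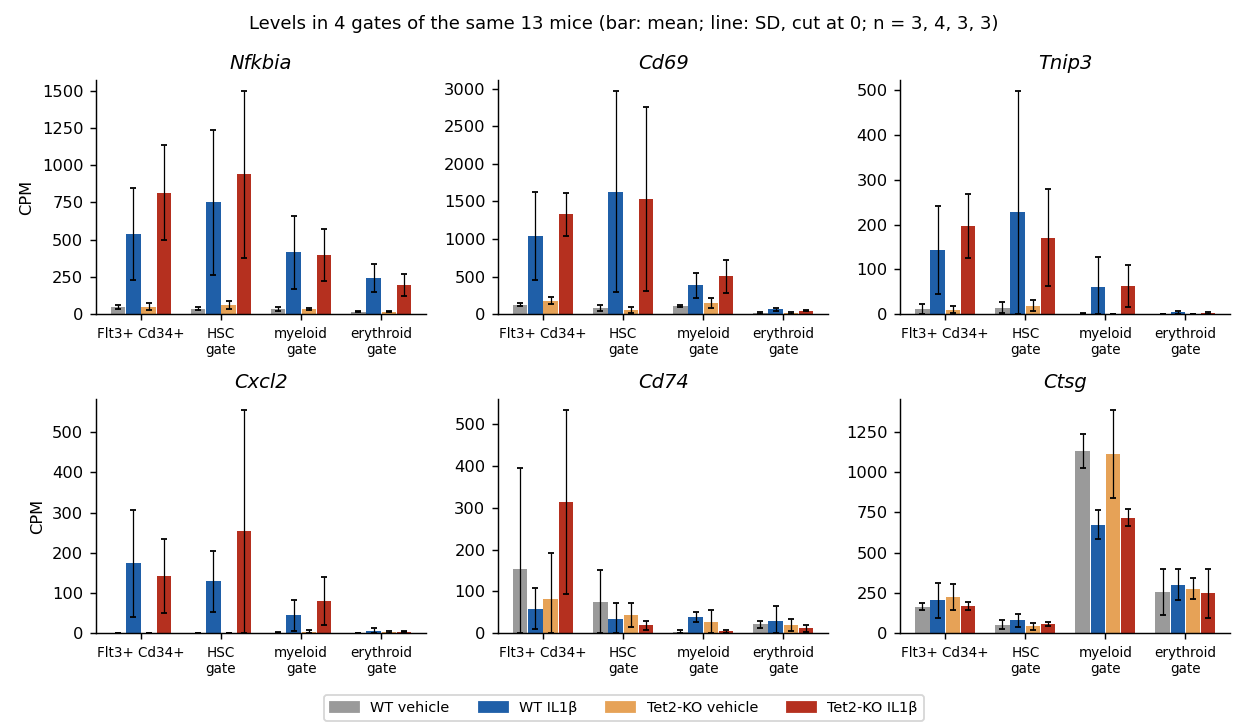
Level (CPM of the gate's own UMIs, linear axis from 0) of 6 genes in 4 gates of the same 13 mice, as mean and SD over 3, 4, 3 and 3 mice of the groups. Nfkbia, Cd69, Tnip3 and Cxcl2 are higher with IL1β in the Flt3+ Cd34+, HSC and myeloid gates, and Cd74 shows wide SD in Flt3+ Cd34+ progenitors.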

How the data were processed

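Droplet 3′ libraries (10x, version 3.1 chemistry) were made from lineage-depleted bone marrow of 16 mice in 8 pools of 2. The authors deposited UMI counts per gene and cell barcode, made with Cell Ranger 3.1.0 on mm10 (Seurat 3.2.3 is also named), with the hashtag counts; 27998 genes were listed. No column of another sample was met.

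Cells with at least 750 genes and at most 10% mitochondrial UMIs were gated as described. The members and gene lists were chosen with earlier results of these data known. Mice were assigned with HTODemux (Seurat 5.3.0), and cells with both hashtags were left out as doublets. Hashtags do not mark doublets within 1 mouse. Counts were summed per mouse (at least 10 cells) and tested in 1 fit over 4 groups with edgeR 4.0.16 (filterByExpr, TMM, quasi-likelihood test, Benjamini-Hochberg adjusted p under 0.05), leaving gate genes out of the calls, since the gate used them. The scripts were tested on simulated counts. Alternatives included DESeq2 1.42.0, other hashtag rules, other gates, thinning to 3000 UMIs and leaving out each mouse or library. The hashtag mixture, the removal of cells with 3 markers of another type and the library leave-outs were chosen after seeing the data.

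Named genes were up to 12 per direction and comparison, taken by size of change from the called genes at a mean of at least 10 CPM (up to 6 for gate differences), and examples from 37 lists, without gate, sex-linked and predicted genes. The 3 promoters and the 6 genes scored per cell were chosen after their values were seen. The replicate numbers of the labels were checked for pairing: of 16 same-numbered pairs, 0 correlated over 0.1. R 4.3.3, Python 3.11.15 and SciPy 1.17.1 were used. Genes with too few UMIs under an alternative were not tested there. Some genes are not reported here.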

Additional observations from a re-analysis of the deposited data

Results flagged for a closer look

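A mouse far from the other 3 of its group was looked for in 50 sets of 4 values, the shares of all groups and the levels of named genes in WT IL1β, the group with 4 mice in the fits. It was found in 6, all of them genes. These genes were picked for their change and measured in the same 4 mice, so the sets are not independent and no chance rate is given. Nfkbia in mouse 1 was at 83.6 CPM (others 684 to 790), Tnf in mouse 1 at 0 (others 209 to 243) and Hbb-bs in mouse 1 at 5.23 (others 41.3 to 48.5). Jchain in mouse 3 was at 1200 CPM (others 48.5 to 139), Cldn13 in mouse 3 at 9.18 (others at 0), and H2-DMa in mouse 2 at 46.5 (others 157 to 162). The value rests on 1 UMI for Hbb-bs and on 2 UMIs each for Cldn13 and H2-DMa.

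The change with IL1β differed between Flt3+ Cd34+ progenitors and another gate for 21 genes and genotypes, tested in edgeR as the difference of the changes, with adjusted p under 0.05 (log2 difference, progenitors minus the other gate). Against the HSC gate in WT, Pf4 differed by 5.23 (adjusted p = 5.27e-06). Against the myeloid gate in WT, the erythroid genes Hba-a1, Hbb-bs, Hba-a2, Cldn13, Blvrb and Car2 differed by -5.54, -4.47, -3.92, -3.91, -1.27 and -0.967, Cd74 by -4.31, Hif1a by -2.54 and Ctsg by 1.20. Leaving out WT vehicle mouse 4 lost the calls of Hbb-bs (-2.73, adjusted p = 0.758) and Hba-a2 (-2.91, adjusted p = 0.758). Also lost there were Cldn13 (-3.68, adjusted p = 0.407), Blvrb (-1.32, adjusted p = 0.199) and Hif1a (-2.38, adjusted p = 0.187). In Tet2-KO, Hba-a2, Rhag, Smim1, Ermap, Car1, Cpox and Blvrb differed by -5.16, -4.95, -3.87, -2.64, -2.33, -2.32 and -1.76. Cd74 differed by 4.76, H2-DMa by 1.12 and Tmsb4x by 0.675. H2-Aa differed by 8.45, but its myeloid gate was at 0 UMIs in all Tet2-KO IL1β mice, so this value depends on the prior count and is no bound. Leaving out Tet2-KO vehicle mouse 4 lost the Tet2-KO calls of Hba-a2, Rhag, Smim1, Ermap, Cpox, Cd74, H2-DMa and H2-Aa.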

How the results depend on the processing

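Numbers of genes called (higher and lower) are given where they moved beyond 1.5 times. For IL1β in WT (111 genes, 84 by DESeq2), requiring 2 Flt3 UMIs gave 8, the hashtag mixture 227 and a hashtag ratio rule 182. Thinning to 3000 UMIs, which kept only mice 1 and 3 of the WT IL1β group, gave 29. For IL1β in Tet2-KO (262), DESeq2 gave 109, requiring 2 Flt3 UMIs 0, the mixture 568, thinning 139, removing cells over 2.5 times the median UMIs 102 and removing the 286 cells with markers of another type 111. Without TMM factors the split was 52 higher and 55 lower in WT and 145 and 100 in Tet2-KO, against 36 and 75 and 106 and 156. Between genotypes under vehicle, no filter on low counts gave 20. Under IL1β, DESeq2 gave 1, the mixture 4, libraries as replicates 15, no filter 53, sex as a term 1 and thinning 3. For the interaction, libraries gave 1, no filter 15 and thinning 1. Against the HSC gate, DESeq2 gave 0 and no filter 5 in WT, and no filter 15 in Tet2-KO. Against the myeloid gate, DESeq2 gave 0 and no filter 18 in WT, and DESeq2 3 and no filter 26 in Tet2-KO. The causes were not tested. The gate without stem cell genes and Mpo gave values for genotype under vehicle only.

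Same-numbered mice did not deviate together (correlations of -0.0863 to 0.0894 over 16 pairs), so over all genes the numbers do not pair the mice, although stress signature genes differed by pool as given above. With the replicate number as a block, calls were 91 for IL1β in WT, 44 in Tet2-KO and 1 between genotypes under IL1β, and 3 there with the block by pool.

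Leaving out 1 mouse or library gave 10 to 140 calls for IL1β in WT, 3 to 359 in Tet2-KO, 0 to 6 for genotype under vehicle, 0 to 6 under IL1β and 0 to 0 for the interaction. Against the HSC gate it gave 1 to 3 in WT and 0 to 8 in Tet2-KO, and against the myeloid gate 1 to 13 and 3 to 16. Differences in share (percentage points) ran from -0.407 to -0.175 for IL1β in WT, -0.446 to -0.0554 in Tet2-KO, -0.149 to 0.223 for genotype under vehicle and -0.145 to 0.222 under IL1β.

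Share differences, none past the threshold, changed sign for IL1β in WT with the ratio rule (0.0477) and in Tet2-KO with thinning (0.226). For genotype under vehicle they did with the mixture (0.264), the ratio rule (1.04), without cells over 2.5 times the median (0.0238), without the 286 cells (0.108), and without 1 mouse (0.00687, 0.223, 0.0393 and 0.0326). Under IL1β they did with 2 Flt3 UMIs (-0.0563), the ratio rule (-0.0843), no stem cell gene and Mpo at 0 (-0.0601), and without 1 mouse (-0.145 and -0.048). Of the named genes, Hba-a2 (0.542) and Ctse (0.118) reversed in Tet2-KO with the ratio rule. WT IL1β mouse 2 was the shallowest in the fits, with 46169 UMIs.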
